A study of Mus musculus with 15 samples.

Results

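The 9 genes described here belong to 3 signalling systems that set the tone and growth of the heart and its vessels. Agt and Ace make angiotensin II, Agtr1a and Agtr2 are its receptors, Edn1 is the precursor of endothelin-1, Ednra and Ednrb are the endothelin receptors, and Nos3 and Nos1 are nitric oxide synthases. They were chosen by symbol: every non-control probe whose transcript accession pairs with one of these symbols was taken. The array carries 13 such probes, and the 9 genes are 9 of 18350 genes with a probe.

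Angiotensinogen, the product of Agt, is cleaved by renin and then by angiotensin-converting enzyme to angiotensin II, which constricts vessels and promotes growth and fibrosis of heart muscle through the type 1 receptor. Endothelin-1, released mainly by endothelial cells, constricts smooth muscle through its type A receptor, while the type B receptor on endothelium promotes the release of nitric oxide and clears the peptide. Nitric oxide made by the endothelial synthase relaxes smooth muscle and opposes both constrictor systems.

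Hearts of C57BL/6 mice were measured on 15 Agilent 1-colour arrays, 1 mouse per array. The mice were 8 to 10 weeks old at the start and received an intraperitoneal injection each week for 5 months. Treated mice (meth) were given methamphetamine hydrochloride in a dose that rose by 2 mg per week to 40 mg/kg, and controls were given phosphate buffered saline (PBS) on the same schedule. The groups were male meth (4 arrays), male PBS (4), female meth (4) and female PBS (3), the males coming from 2 trials with 2 arrays of each treatment.

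Levels are normalized log2 signals, the log2 of the spot signal minus the 75th percentile of the same array, so that 0 stands for a signal equal to that percentile. The percentile lay between 307 and 589 intensity units. Between 61.4% and 71.4% of the non-control spots were well above background, a flag that the extraction software sets for each spot. Of 41174 non-control probes, 28358 were well above background on at least 3 of 15 arrays and were tested. A probe is called past the threshold when its adjusted p in limma is under 0.05. Probes differ in how brightly they report the same amount of RNA, so a higher level of 1 probe than of another need not mean more RNA, and 3 or 4 arrays a group limit the precision of each difference.

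Slides 1 and 2 each carried 1 array of each of the 4 groups, with the males of trial 1. Slide 3 carried the 4 arrays of male trial 2, and slide 4 carried female meth replicates 3 and 4 and female PBS replicate 3. The arrays of slide 4 were the brightest, with 75th percentiles from 438 to 589. For part of the females the sample labels do not give the same trial everywhere, so the trial as the titles give it was used, and the other reading is 1 of the alternatives tried. Sex and slide cannot be told apart on slides 3 and 4, which held 1 sex each.

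The tissue label was checked on marker genes. All 6 cardiomyocyte markers and all 4 atrial markers were detected on every array, Myl2 having the highest signal of the former at a mean of 9.74 and Nppa of the latter at 8.91. The 4 male meth arrays stood apart from the other arrays in airway markers. The summed signal of 5 such markers, those well above background on enough arrays to be tested, in units of the 75th percentile, was 44.2 and 145 on the trial 1 male meth arrays and 29.5 and 55.4 on those of trial 2. On the male PBS arrays it was 0.264 to 0.288, and on the female arrays 0.784 to 2.95. Their part in any difference between male meth and male PBS given here was not tested beyond the values placed beside it.

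Of the 9 genes, 7 were well above background on all 15 arrays and 2 on none. Agtr2 and Nos1 were not detected on any array, so they received no fold change. The 7 detected genes are represented by 11 probes, and each gene is described by its probe with the highest mean level.

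The first comparison asked whether meth changed these genes in males. In limma, 314 of the 28358 probes tested were past the threshold between male meth and male PBS (1.11%; 157 with the replicate block), and 0 of the 7 genes were among them. None reached an unadjusted p under 0.05 either, against 3640 of all probes (12.8%). The log2 fold changes ran from -0.11 for Agt to 0.48 for Ace. Their median absolute size was 0.04, beside 0.12 over all probes tested.

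In females the same question had the same answer at this number of arrays. Between female meth and female PBS, 215 probes were past the threshold (0.758%; 101 with the replicate block), with 0 of the 7 genes. At an unadjusted p under 0.05 there were again 0 of 7, against 3129 of all probes (11.0%). Fold changes on the log2 scale lay between -0.16 for Agtr1a and 0.13 for Ace, with a median absolute size of 0.08 beside 0.11 over all probes.

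A further test asked whether the response to meth differed between the sexes. It called 39 probes (0.138%; 0 with the replicate block) and 0 of the 7 genes, of which 0 also had an unadjusted p under 0.05, against 2458 of all probes (8.67%). Averaged over both sexes, the meth effect was past the threshold for 751 probes (2.65%) and for 0 of the 7 genes, with 0 at an unadjusted p under 0.05 and 4349 of all probes (15.3%). No detected gene had meth arrays that all lay above or all below the PBS arrays of the same sex, a separation seen for 2795 probes in males (9.86%, 2.86% by chance) and 2572 in females (9.07%, 5.71% by chance).

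**Figure D1:**
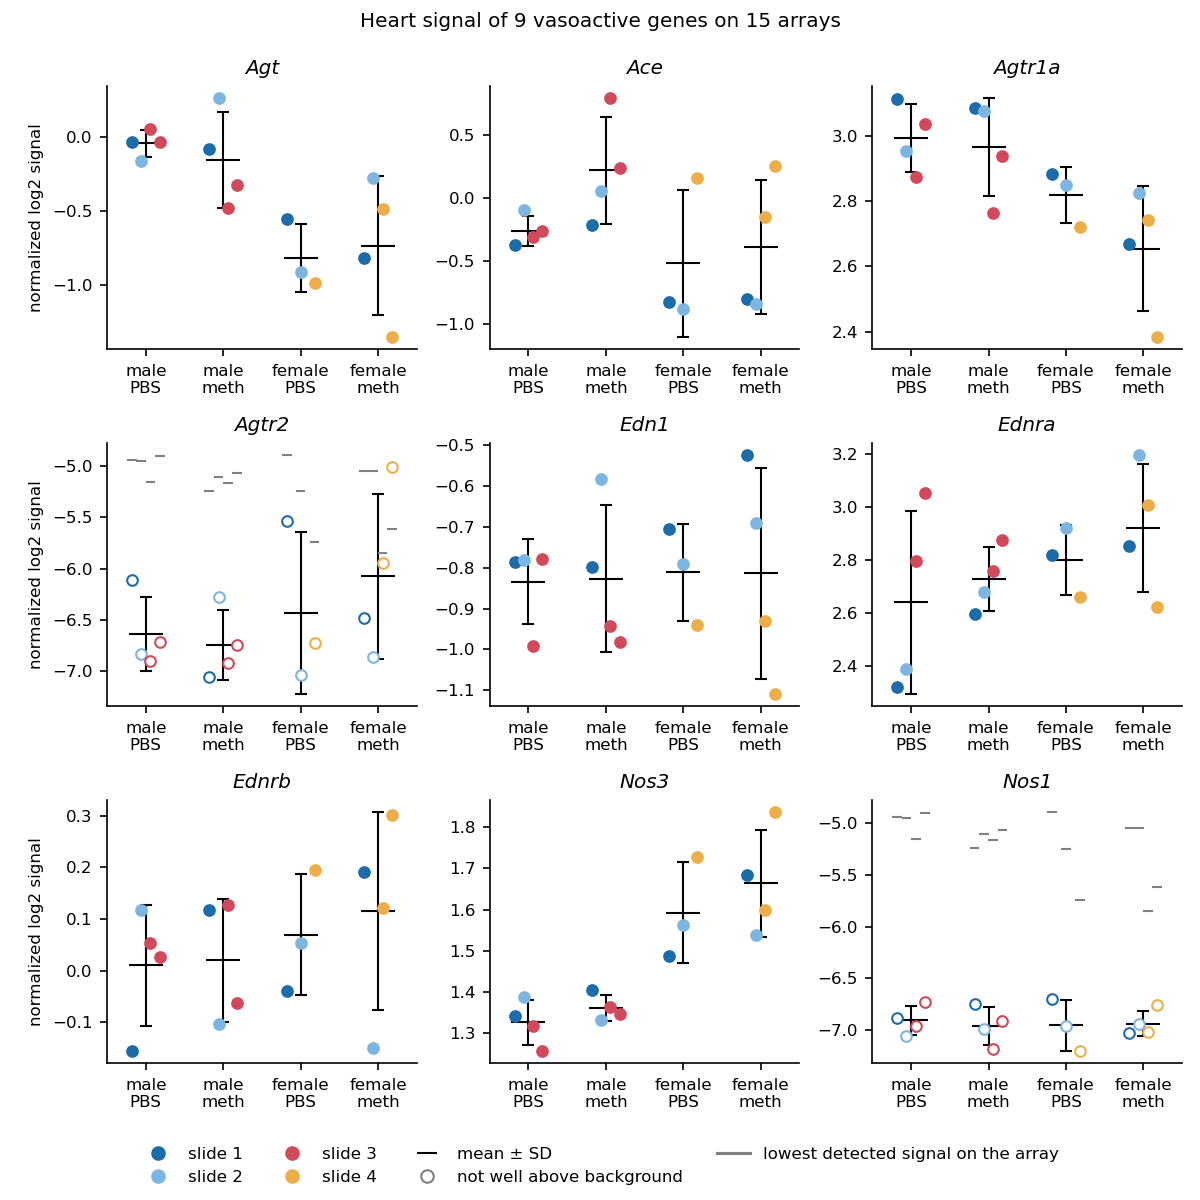
Normalized log2 signal (vertical axis) of the 9 genes on each of the 15 arrays, by group, with points coloured by slide and bars for the mean ± SD. Agtr2 and Nos1 have open points, not well above background on any array, and Nos3 is the gene whose male and female arrays do not overlap (males up to 1.40, females from 1.49).

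Agt encodes angiotensinogen, the only precursor of the angiotensin peptides. On the male PBS arrays its level was -0.04 and -0.16 in trial 1 and 0.05 and -0.04 in trial 2. The male meth arrays gave -0.08 and 0.26 in trial 1 and -0.48 and -0.33 in trial 2. In females the level was -0.56, -0.92 and -0.99 with PBS and -0.82, -0.28, -0.49 and -1.35 with meth.

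The male meth arrays spread on both sides of the male PBS arrays, trial 1 replicate 2 being the highest and the trial 2 arrays the lowest, and the female groups overlapped as well. The group means were -0.05 ± 0.09 (SD, n = 4) in male PBS, -0.16 ± 0.33 (n = 4) in male meth, -0.74 ± 0.47 (n = 4) in female meth and -0.82 ± 0.23 (n = 3) in female PBS. In this order the neighbouring groups within a sex differed by less than their spread, while the step between the male and the female groups was larger than the SD of each group. The log2 fold change with meth was -0.11 in males (95% confidence interval -0.57 to 0.34, adjusted p 0.876, 1 of 4 meth arrays above the PBS mean). It was 0.08 in females (-0.41 to 0.58, adjusted p 0.950, 2 of 4 above).

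Ace encodes the converting enzyme, which sits mainly on the surface of endothelial cells. Male PBS hearts had levels of -0.37 and -0.09 in trial 1 and -0.31 and -0.26 in trial 2. Male meth hearts had -0.21 and 0.06 in trial 1 and 0.80 and 0.24 in trial 2. The 4 male meth arrays all lay above the male PBS mean of -0.26 ± 0.12 (n = 4), but the lowest of them fell within the PBS range.

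The male log2 fold change of Ace, 0.48, was the largest meth effect among the 7 genes, and its 95% confidence interval, -0.15 to 1.11, included 0 (adjusted p 0.529). An exact permutation test of the 4 against 4 arrays, two-sided, gave p = 0.0571, where the smallest p that this design can give is 0.0286. That test takes no account of pairs. In the 4 pairs with equal numbers, which share a slide, meth exceeded PBS each time, by 0.16 and 0.15 in trial 1 and 1.11 and 0.50 in trial 2. An exact permutation test of the signs within pairs, two-sided and added after seeing the data, gave p = 0.125, the smallest that 4 pairs can give. With the replicate block the unadjusted p was 0.0209 and the adjusted p 0.205, in a range of 0.132 to 1.00 over all alternatives. The difference was 0.16 within trial 1 (adjusted p 1.00) and 0.81 within trial 2 (adjusted p 0.517). These within-trial comparisons called 85 probes (0.300%) and 101 probes (0.356%) in all, with 0 of the 7 genes each in limma. At an unadjusted p under 0.05 there were 2066 (7.29%) and 3045 (10.7%) probes and again 0 of the 7 genes. The test of the difference between the trials gave 0.65 for Ace (adjusted p 1.00) and called 0 of all probes in limma (0%), with 1294 at an unadjusted p under 0.05 (4.56%) and 0 of the 7 genes among them.

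The second Ace probe, with lower signal, gave 0.49 in males and 0.19 in females. Within the trials it gave 0.04 in trial 1 (adjusted p 1.00) and 0.93 in trial 2 (0.06 to 1.79, adjusted p 0.424), the latter with an unadjusted p of 0.0375. Over the 15 arrays its level followed the first probe with a Pearson r of 0.95, a description without a test. On the male meth arrays the airway sums were 44.2 and 145 in trial 1, where Ace was -0.21 and 0.06, and 29.5 and 55.4 in trial 2, where Ace was 0.80 and 0.24. The array with the higher sum had the higher Ace level in trial 1 and the lower in trial 2, and the part of airway RNA in the Ace values was not tested.

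In females Ace split by slide. On slides 1 and 2 the level was -0.83 and -0.89 with PBS and -0.81 and -0.85 with meth, and on slide 4 it was 0.16 with PBS and -0.15 and 0.26 with meth. Every array of slide 4 was thus above every female array of slides 1 and 2, whichever the treatment. Within slides, meth and PBS in females differed by 0.02 on slide 1, 0.04 on slide 2 and -0.11 on slide 4. The fitted fold change in females was 0.13 (-0.54 to 0.81, adjusted p 0.943), with 2 of 4 meth arrays above the PBS mean. Over the groups the means fell from 0.22 ± 0.43 in male meth (n = 4) through -0.26 ± 0.12 in male PBS (n = 4) and -0.39 ± 0.53 in female meth (n = 4) to -0.52 ± 0.59 in female PBS (n = 3), and the last 3 did not differ beyond their spread.

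Agtr1a encodes the type 1a angiotensin receptor, through which most pressor and growth effects of angiotensin II run in rodents. Its levels were 3.12, 2.95, 2.87 and 3.04 on the male PBS arrays and 3.09, 3.08, 2.77 and 2.94 on the male meth arrays, trial 1 first. The female PBS arrays gave 2.89, 2.85 and 2.72, and the female meth arrays gave 2.67, 2.82, 2.74 and 2.38. Within each sex the groups overlapped, and female meth replicate 4 was the lowest of all 15 arrays.

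Means were 3.00 ± 0.10 in male PBS, 2.97 ± 0.15 in male meth, 2.82 ± 0.09 in female PBS (n = 3) and 2.66 ± 0.19 in female meth, with n = 4 for the rest. No neighbours in this order differed by more than the larger SD of the pair. The meth fold change of Agtr1a was -0.03 in males (-0.24 to 0.18, adjusted p 0.939, 2 of 4 meth arrays above the PBS mean). In females it was -0.16 (-0.39 to 0.06, adjusted p 0.640, 1 of 4 above). A second probe of the gene gave -0.02 and -0.13, although its levels followed those of the first weakly over the 15 arrays (r = 0.19).

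Agtr2 encodes the type 2 receptor, which is abundant in fetal tissue and scarce in the adult heart. Its probe was well above background on 0 of 15 arrays, with signals of -7.06 to -5.01. The highest, on female meth replicate 4, was not well above background either, although dimmer spots of that array were. Group means were -6.64 in male PBS, -6.75 in male meth, -6.43 in female PBS and -6.07 in female meth, all under the lowest signal that counted as detected on any array. No difference in Agtr2 was detectable at this signal, which does not show that the transcript was absent.

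Edn1 encodes the precursor of endothelin-1. Male PBS hearts had levels of -0.79, -0.78, -0.99 and -0.78, and male meth hearts -0.80, -0.58, -0.94 and -0.98, trial 1 first in each. Female PBS hearts had -0.70, -0.79 and -0.94, and female meth hearts -0.52, -0.69, -0.93 and -1.11. The 4 group means lay between -0.83 and -0.81, and the SDs were 0.10 to 0.26.

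Edn1 was the gene with the smallest fold changes. They were 0.01 in males (-0.25 to 0.26, adjusted p 0.989, 2 of 4 meth arrays above the PBS mean) and -0.00 in females (-0.28 to 0.27, adjusted p 0.998, 2 of 4 above). In females the level followed the slide: meth minus PBS was 0.18 on slide 1, 0.10 on slide 2 and -0.08 on slide 4, and the 3 arrays of slide 4 were the lowest female arrays.

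Ednra encodes the type A endothelin receptor, carried by smooth muscle and heart muscle cells. The male PBS arrays gave 2.32 and 2.39 in trial 1 and 2.79 and 3.05 in trial 2. The male meth arrays gave 2.60 and 2.68 in trial 1 and 2.76 and 2.88 in trial 2. Female levels were 2.82, 2.92 and 2.66 with PBS and 2.85, 3.20, 3.01 and 2.62 with meth.

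Both trial 1 male PBS arrays were below all other arrays, and both trial 2 male PBS arrays were within the range of the meth arrays or above it. Means ran from 2.64 ± 0.35 in male PBS through 2.73 ± 0.12 in male meth and 2.80 ± 0.13 in female PBS (n = 3) to 2.92 ± 0.24 in female meth, with n = 4 for the rest, and no neighbours differed beyond their spread. The meth fold change of Ednra was 0.09 in males (-0.18 to 0.36, adjusted p 0.831, 3 of 4 meth arrays above the PBS mean). It was 0.12 in females (-0.17 to 0.41, adjusted p 0.846, 3 of 4 above). A second, dimmer probe gave 0.04 and -0.16, so that the direction in females depended on the probe, and it followed the first with r = 0.79.

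Ednrb encodes the type B receptor, found on endothelium and other cells. Its levels were -0.16, 0.12, 0.05 and 0.03 in male PBS and 0.12, -0.10, 0.13 and -0.06 in male meth, and they ran from -0.04 to 0.19 in female PBS and from -0.15 to 0.30 in female meth. The largest difference between group means was thus smaller than the range within any group. The fold change with meth was 0.01 in males (-0.22 to 0.24, adjusted p 0.983, 2 of 4 meth arrays above the PBS mean) and 0.05 in females (-0.20 to 0.29, adjusted p 0.946, 3 of 4 above). The other Ednrb probe, with r = 0.69, gave 0.09 and 0.24 (adjusted p 0.805 and 0.546).

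Nos3 encodes the endothelial nitric oxide synthase. In males its levels were the tightest of the 7 genes: 1.34, 1.39, 1.32 and 1.26 with PBS and 1.40, 1.33, 1.36 and 1.35 with meth, trial 1 first. Its probe has 10 spots on each array, averaged here, beside 1 spot for the brightest probe of each other detected gene. The part of this averaging in the small spread was not tested. Female PBS arrays gave 1.49, 1.56 and 1.73, and female meth arrays 1.68, 1.54, 1.60 and 1.84. Every female array was above every male array.

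Nos3 was not past the threshold with meth. The fold change with meth was 0.04 in males (-0.13 to 0.20, adjusted p 0.895, 4 of 4 meth arrays above the PBS mean) and 0.07 in females (-0.11 to 0.25, adjusted p 0.849, 3 of 4 above). Group means were 1.33 ± 0.06 in male PBS (n = 4), 1.36 ± 0.03 in male meth (n = 4), 1.59 ± 0.12 in female PBS (n = 3) and 1.66 ± 0.13 in female meth (n = 4).

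Nos1, the neuronal synthase, which heart muscle also makes in small amounts, was not detected. Its signal lay between -7.20 and -6.70 on the 15 arrays, with group means of -6.91 in male PBS, -6.96 in male meth, -6.95 in female PBS and -6.94 in female meth. The lowest signal that counted as detected was between -5.85 and -4.89 on the different arrays. Differences in Nos1 below that level could not be seen.

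**Figure D2:**
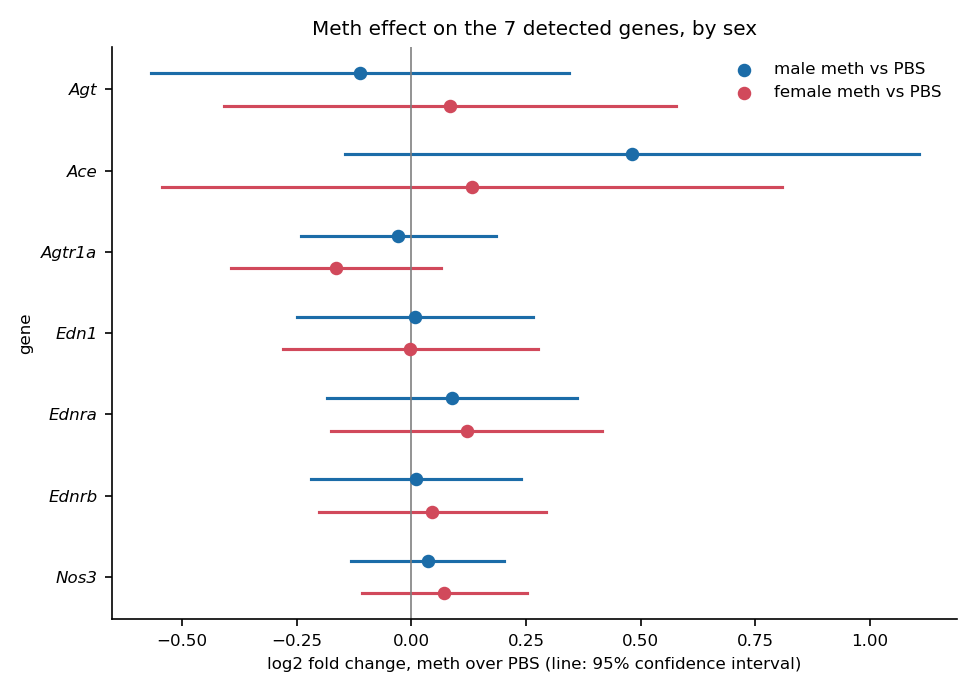
Log2 fold change of meth over PBS (horizontal axis) for the 7 detected genes in males and females, with lines for the 95% confidence interval. All 14 intervals include 0, and that of Ace in males reaches furthest, to 1.11.

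The intervals give the range of meth effects around each fitted value, without adjustment for the number of probes tested. For Nos3 they ran from -0.13 to 0.20 in males and from -0.11 to 0.25 in females. For Ace they ran from -0.15 to 1.11 in males and from -0.54 to 0.81 in females. Calls use the adjusted p, so effects beyond these ends could also be missed. A p that misses the threshold does not show that a gene did not change.

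With PBS, the comparison of males with females called 136 probes (0.480%) and 0 of the 7 genes in limma, while 4 of 7 had an unadjusted p under 0.05, against 4314 of all probes (15.2%). With meth it called 744 probes (2.62%) and 0 of the 7 genes, with 4 of 7 at an unadjusted p under 0.05, against 5244 of all probes (18.5%). The 4 were Agt, Agtr1a, Ednra and Nos3 each time.

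Because of these levels, a mean of both sex differences was added, chosen after seeing the data. It called 1009 probes (3.56%) and 1 of the 7 genes, Agt, and 4 of 7 had an unadjusted p under 0.05, against 6281 of all probes (22.1%). The median absolute difference over the 7 genes was 0.30, beside 0.14 over all probes tested. Since the trial is a term of the fit and all females count as trial 1, each sex difference is taken at the trial 1 level of the males.

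Agt was higher in males by 0.77 ± 0.19 (SE, log2; 95% confidence interval 0.37 to 1.18, adjusted p 0.0423). Of 8 male arrays, 6 were above the highest female array, and of 7 female arrays, 6 were below the lowest male array. With PBS the difference was 0.87 (adjusted p 0.150) and with meth 0.67 (adjusted p 0.154). On slide 1 the male array exceeded the female array by 0.52 with PBS and 0.74 with meth, and on slide 2 by 0.75 and 0.54. The direction was thus the same in all 4 pairs that shared a slide.

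The call for Agt was close to the threshold. It was kept with female meth replicate 2, 3 or 4, female PBS replicate 1 or male meth trial 2 replicate 1 left out, with adjusted p of 0.0207, 0.0477, 0.0376, 0.0448 and 0.0461. It was lost without each of the other 10 arrays. Without the male trial 1 arrays in turn the adjusted p was 0.0893 (meth replicate 1), 0.170 (meth replicate 2), 0.107 (PBS replicate 1) and 0.0627 (PBS replicate 2). Without those of trial 2 it was 0.0575 (meth replicate 2), 0.0551 (PBS replicate 1) and 0.0592 (PBS replicate 2). Without a female array it was 0.0628 (meth replicate 1), 0.0817 (PBS replicate 2) and 0.0854 (PBS replicate 3). The difference itself stayed between 0.64 and 0.86 in these fits, and over all alternatives the adjusted p ran from 0.0115 to 0.176.

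Fat cells also make Agt, so fat markers are given beside its sex difference. Over both treatments the median log2 difference was 0.54 over the 4 white fat markers tested and 1.33 over the 3 brown fat markers, beside -0.03 over all probes. In each list 1 marker was higher in males past the threshold, Plin1 by 1.43 (adjusted p 0.0357) and Cidea by 0.69 (adjusted p 0.0286). Both are named, and the alternatives for them chosen, after their values were seen. The call of Plin1 was lost under 10 of 14 alternatives (adjusted p 0.0242 to 0.265 over all) and that of Cidea under 9 (0.0191 to 0.248), and without the trial term the differences were 0.74 and 0.41. Without male meth trial 1 replicate 2, male PBS trial 1 replicate 1, female meth replicate 4, female PBS replicate 1 or female PBS replicate 3 both calls were lost (0.140, 0.137, 0.0536, 0.0655 and 0.0728 for Plin1, and 0.116, 0.112, 0.0523, 0.0540 and 0.0601 for Cidea). That of Plin1 was also lost without female meth replicate 3 (0.0591) or male PBS trial 2 replicate 1 (0.0517). The summed brown fat signal was 44.6 ± 19.4 in male PBS, 44.6 ± 21.4 in male meth, 29.0 ± 6.31 in female PBS (n = 3) and 33.3 ± 2.86 in female meth, with n = 4 for the rest, and the ranges of the sexes overlapped. The white fat sum was 26.4 ± 14.9, 73.3 ± 49.6, 27.5 ± 3.17 and 71.0 ± 15.6 in the same order. All 4 liver markers tested were lower in males over both treatments, with a median of -1.22. Without Alb and Fgb, well above background on 0 of 8 male arrays, the median was -0.30. The part of fat or liver RNA in the Agt difference was not tested.

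With meth, 1 of the 4 white fat markers was past the threshold in males, Cfd, by 1.44 (adjusted p 0.0444), and 0 in females, where Cfd gave 1.37 (adjusted p 0.0829). The list median was 1.25 in males and 1.27 in females, beside -0.03 and 0.00 over all probes. The call of Cfd was lost under 12 of 18 alternatives, the replicate block among them (0.144), in a range of 0.0332 to 0.476. Of single arrays, it was kept without male meth trial 1 replicate 1 or male meth trial 2 replicate 2. It was lost without male meth trial 1 replicate 2 (0.116), male PBS trial 1 replicate 1 (0.0543), male PBS trial 1 replicate 2 (0.122), male meth trial 2 replicate 1 (0.134), male PBS trial 2 replicate 1 (0.130) or male PBS trial 2 replicate 2 (0.0847). The female arrays entered through the shared spread, and the call was lost without female meth replicate 1 (0.0535), 2 (0.0555), 3 (0.0572) or 4 (0.0599) or female PBS replicate 1 (0.0663), 2 (0.0604) or 3 (0.0591).

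Nos3 was lower in males by 0.26 on the log2 scale, a fold change of -0.26 (-0.41 to -0.11, adjusted p 0.0553), just outside the threshold. Its 8 male arrays, 1.26 to 1.40 with a median of 1.34, and its 7 female arrays, 1.49 to 1.84 with a median of 1.60, did not overlap, as for 422 of all probes (1.49%, 0.0311% by chance). Within slide 1 the male minus female difference was -0.15 with PBS and -0.28 with meth, and within slide 2 it was -0.17 and -0.21. Without female meth replicate 2 the adjusted p was 0.0354, and over all alternatives it ran from 0.00793 to 0.311.

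Nos3 is made mainly by endothelial cells, so the markers of that cell type are given beside it. The 11 endothelial markers were all detected on every array, Egfl7 having the highest signal at a mean of 4.80. Over both treatments 10 of the 11 were lower in males, with a median log2 difference of -0.17 beside -0.03 over all probes, and 0 were past the threshold. Their summed signal was 94.1 ± 4.01 in male PBS (n = 4), 94.5 ± 3.98 in male meth (n = 4), 107 ± 6.60 in female PBS (n = 3) and 110 ± 11.4 in female meth (n = 4). In males, 7 of the 11 markers were higher with meth than with PBS and 4 were lower (median 0.05, beside -0.03 over all probes). In females 2 were higher and 9 lower (median -0.07, beside 0.00). With meth, 1 endothelial marker, Cldn5, fell in males, by 0.43 on the log2 scale (adjusted p 0.0376), and 0 passed the threshold in females. Its call was lost with the replicate block (0.0683, in a range of 0.0113 to 0.540 over all alternatives) and without male meth trial 1 replicate 2 (0.129), male PBS trial 1 replicate 1 (0.0720), male PBS trial 1 replicate 2 (0.128), female meth replicate 4 (0.0507), female PBS replicate 2 (0.0539), male meth trial 2 replicate 1 (0.104), male meth trial 2 replicate 2 (0.0857), male PBS trial 2 replicate 1 (0.122) or male PBS trial 2 replicate 2 (0.113). In whole hearts, fewer cells of a type and less RNA per cell cannot be told apart, and the part of the endothelial share in the Nos3 difference was not tested.

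Among the receptor genes, Agtr1a was higher in males by 0.32 (0.13 to 0.51, adjusted p 0.0613), and its other probe gave 0.16 (-0.11 to 0.42, adjusted p 0.460). By the first probe 6 of 8 male arrays were above the highest female array. The 4 pairs sharing a slide gave 0.23 and 0.42 on slide 1 and 0.10 and 0.25 on slide 2, PBS first. Without female meth replicate 2 the adjusted p was 0.0377, and over all alternatives it ran from 0.0236 to 0.460. With PBS alone the difference was 0.25 (adjusted p 0.326) and with meth alone 0.39 (adjusted p 0.0844).

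Ednra was lower in males, with a difference of -0.36 (-0.61 to -0.12, adjusted p 0.0892), -0.35 with PBS (adjusted p 0.301) and -0.38 with meth (adjusted p 0.178). Without the trial term these were -0.18 (adjusted p 0.389, in a range of 0.0402 to 0.389 over all alternatives), -0.16 and -0.19. Within slide 1 the difference was -0.50 with PBS and -0.26 with meth, and within slide 2 it was -0.53 and -0.52. The trial 2 males on slide 3 were nearer to the females, at 2.76 to 3.05. Over both treatments 5 of 7 smooth muscle markers were higher in males and 2 lower (median 0.22, beside -0.03 over all probes). Of 6 cardiomyocyte markers, 5 were higher and 1 lower (median 0.18). In each of these lists 0 markers were past the threshold, and the part of these cells in the Ednra difference was not tested.

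For Ace the sex difference depended on how the slides were treated. The fitted value was 0.30 (-0.26 to 0.85, adjusted p 0.507), 0.12 with PBS (adjusted p 0.892) and 0.47 with meth (adjusted p 0.451). Within slide 1 the male array exceeded the female array by 0.46 with PBS and 0.59 with meth, and within slide 2 by 0.79 and 0.90. With the slide as a fixed block the difference was 0.69 (adjusted p 0.0488) and with meth 0.94 (adjusted p 0.0402). Over all alternatives the adjusted p ran from 0.0365 to 0.769 for the mean of both differences and from 0.0295 to 0.733 with meth. Slide 4, whose females had the higher Ace levels, held no males, so that slide and sex cannot be told apart there.

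Edn1 and Ednrb differed little between the sexes. On slides 1 and 2 the sign of the male minus female difference of Edn1 changed, from -0.27 to 0.11. For Ednrb it ran from -0.12 to 0.06.

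**Figure D3:**
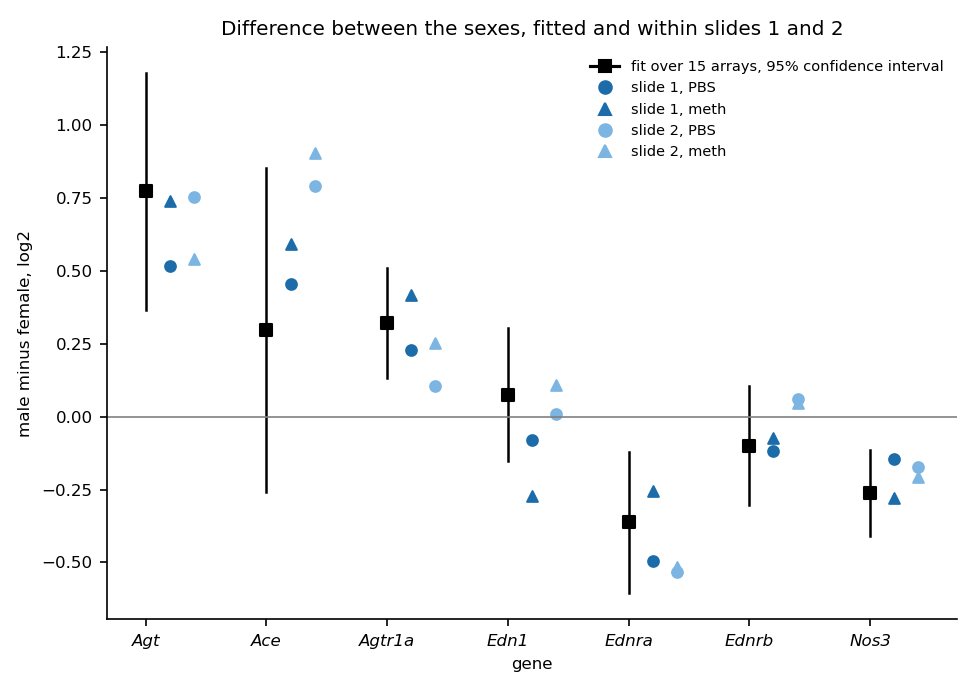
Male minus female difference of the 7 detected genes (vertical axis, log2). Squares are the fit over 15 arrays with 95% confidence intervals, and the other symbols are pairs of arrays that share slide 1 or 2. For Agt all 4 pairs are above 0, from 0.52 to 0.75, and for Nos3 all 4 are below 0, from -0.28 to -0.15.

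Other genes of the same pathways were taken from 4 lists: 26 renin-angiotensin genes, 9 endothelin genes, 29 nitric oxide genes and 10 genes for feedback on this signalling and for stress of the heart. The lists hold the 9 genes as well. Of them, 21, 7, 25 and 10 were tested, and Nos1ap and Gucy1a2 of the nitric oxide list had no probe. In males, 0 renin-angiotensin, 0 endothelin and 0 nitric oxide genes were past the threshold with meth in limma, and in females the counts of these 3 lists were the same.

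List medians with meth were close to those of all probes. In males they were -0.03, 0.01, 0.04 and 0.05 in the order above, beside -0.03 over all probes. In females they were 0.08, 0.12, 0.03 and 0.12, beside 0.00. Genes detected on 0 arrays of a group compared enter these medians at their fitted values; without them the male medians of the endothelin and nitric oxide lists were 0.01 and 0.00.

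Several list genes had larger fold changes with meth that did not pass the threshold. Ren1, encoding renin, was well above background on 3 of 4 male PBS, 2 of 4 male meth, 1 of 3 female PBS and 4 of 4 female meth arrays, and its fold changes of -1.02 in males and 0.95 in females (adjusted p 0.421 and 0.582) are close to the background. Kng1, for kininogen, was detected on 5 of 15 arrays (log2 fold changes -0.70 and -0.78, adjusted p 0.584 in the male and 0.646 in the female comparison). Mmel1, an endopeptidase, was detected on 11 (-0.26 and 0.53, adjusted p 0.792 and 0.645). Edn2, another endothelin, was detected on 4, with 0 of 4 male PBS arrays, so that only its female value of 0.28 (adjusted p 0.879) is given. Over all alternatives and left-out arrays these fold changes kept their direction but not their size. In males they ran from -1.21 to -0.14 for Ren1, -1.06 to -0.049 for Kng1 and -0.57 to -0.015 for Mmel1. In females they ran from 0.23 to 1.72 for Ren1, -1.10 to -0.0011 for Kng1 and 0.21 to 1.06 for Mmel1. The female range of Edn2 was 0.048 to 0.61.

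In the nitric oxide list Ass1, which makes the precursor of arginine, had the largest fold change of the genes tested in males, not past the threshold. Its levels were -1.29, -1.30, -1.47 and -1.36 in male PBS and -0.89, -0.81, -0.54 and -1.03 in male meth, groups that do not overlap. Such a separation was seen for 9.86% of all probes in males (2.86% by chance). Its fold change was 0.54 (adjusted p 0.100). It passed with the slide as a random block (0.0289) and the scan session as a block (0.0447), in a range of 0.0289 to 0.722 over all alternatives and left-out arrays. In females the fold change was -0.35 for Nos2, the inducible synthase (adjusted p 0.710), and 0.32 for Dynll1, a light chain that binds the neuronal synthase (adjusted p 0.447), neither past the threshold. With normexp the log2 fold change of Nos2 turned to 0.078.

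Of the stress genes, Myh7, the slow myosin heavy chain, had a fold change of 1.34 in the male comparison (adjusted p 0.172) and 0.35 in the female comparison (adjusted p 0.863). Its male meth arrays spread from 4.57 and 5.56 in trial 1 to 6.84 and 8.41 in trial 2. Ccn2, connective tissue growth factor, had 0.68 in the male comparison (adjusted p 0.328) and 0.71 in the female comparison (adjusted p 0.398). Its female groups did not overlap, with 3.67 to 3.88 under PBS and 4.27 to 4.71 under meth. Such a separation was seen for 9.07% of all probes in females (5.71% by chance). In males, meth replicate 2 of trial 2, at 3.49, was within the PBS range of 3.38 to 3.84, and without that array the male fold change of Ccn2 was 1.06 (adjusted p 0.0145), beside a range of 0.0145 to 1.00 over all alternatives.

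**Figure D4:**
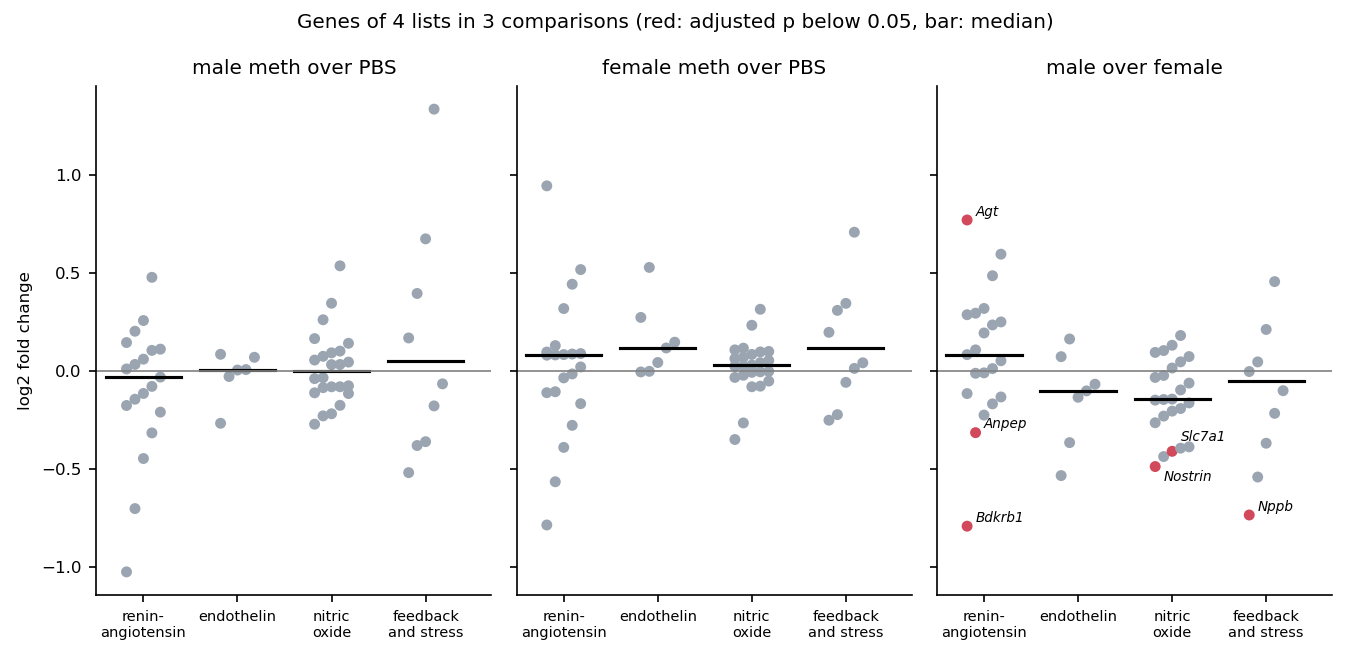
Log2 fold changes (vertical axis) of the tested genes of 4 pathway lists for male meth over PBS, female meth over PBS and male over female, with bars at the list medians and red points for adjusted p under 0.05. Genes detected on 0 arrays of a group compared and genes not reported here are not drawn, and the labelled points of the right panel are Agt, above 0, and genes lower in males.

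Between the sexes, several list genes were lower in males. With meth, 2 of the 61 tested list genes reported here passed the threshold, Bdkrb1 and Nppb (3.28%, beside 2.62% of all probes), and with PBS 0 did (0%, beside 0.480%). Whether the lists differ from all probes in these shares was not tested. Bdkrb1 encodes the kinin B1 receptor. Its 8 male arrays ran from 0.60 upwards with a median of 0.94, none reaching the lowest female array, and its 7 female arrays from 1.29 to 2.41 with a median of 1.77. Such a separation was seen for 422 of all probes (1.49%), and Bdkrb1 was named for passing on these same arrays. The difference was -1.05 with meth (adjusted p 0.0236) and -0.79 over both treatments (adjusted p 0.0262). The call with meth was lost without male meth trial 1 replicate 1 (0.0553), male meth trial 1 replicate 2 (0.142) or female meth replicate 3 (0.0539), adjusted p in brackets. Over both treatments the call was lost without male meth trial 1 replicate 2 (0.112), male PBS trial 1 replicate 1 (0.0732), male PBS trial 1 replicate 2 (0.0725) or female PBS replicate 3 (0.0561).

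Nppb encodes the natriuretic peptide BNP, made by strained heart muscle. Male arrays ran from 4.48 to 5.90 with a median of 5.12, and female arrays from 5.35 to 5.97 with a median of 5.73, so the sexes overlapped. The difference was -1.01 with meth (adjusted p 0.0334) and -0.73 over both treatments (adjusted p 0.0405). Without the trial term it was -0.64 with meth and -0.36 over both treatments, neither past the threshold. Leaving out 1 of 9 arrays ended the call with meth: male meth trial 1 replicate 2 (0.181), male PBS trial 1 replicate 1 (0.0622), male PBS trial 1 replicate 2 (0.0528), female meth replicate 1 (0.0573), female meth replicate 2 (0.0553), female meth replicate 3 (0.0747), female meth replicate 4 (0.0542), male PBS trial 2 replicate 1 (0.0599) or male PBS trial 2 replicate 2 (0.0579). Over both treatments 11 arrays did so: male meth trial 1 replicate 2 (0.164), male PBS trial 1 replicate 1 (0.135), male PBS trial 1 replicate 2 (0.0938), female meth replicate 1 (0.0571), female meth replicate 3 (0.0630), female meth replicate 4 (0.0536), female PBS replicate 1 (0.0649), female PBS replicate 2 (0.0526), female PBS replicate 3 (0.0552), male PBS trial 2 replicate 1 (0.0589) or male PBS trial 2 replicate 2 (0.0586).

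Over both treatments, the comparison chosen after seeing the data, 6 of the 61 list genes passed (9.84%, beside 1009 or 3.56% of all probes): Agt, Bdkrb1, Nppb and 3 further genes that were lower in males. Nostrin, a protein that binds the endothelial synthase and takes it off the membrane, differed by -0.49 (adjusted p 0.0285). Male arrays gave -1.93 to -1.25 and female arrays -1.68 to -1.14. Anpep, an aminopeptidase that trims angiotensin peptides, differed by -0.31 (adjusted p 0.0284), with 1.23 to 1.75 in males and 1.86 to 2.01 in females. Slc7a1, a transporter of arginine, differed by -0.41 (adjusted p 0.0474), with 0.51 to 0.81 in males and 0.84 to 1.31 in females.

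Anpep and Slc7a1 thus had no overlap between the sexes, as for 422 of all probes (1.49%), while Nostrin did. These genes were named for passing the sex comparison on the same arrays, so the separation adds no separate support. Each call was lost without some single arrays, adjusted p in brackets. For Nostrin these were male meth trial 1 replicate 1 (0.0753), male meth trial 1 replicate 2 (0.0629), male PBS trial 1 replicate 1 (0.117), male PBS trial 1 replicate 2 (0.0578), female PBS replicate 2 (0.0589) or female PBS replicate 3 (0.0603). For Anpep they were male meth trial 1 replicate 1 (0.0817), male meth trial 1 replicate 2 (0.0999), male PBS trial 1 replicate 1 (0.0610), male PBS trial 1 replicate 2 (0.0865), female PBS replicate 2 (0.0598) or female PBS replicate 3 (0.0561). For Slc7a1 they were male meth trial 1 replicate 1 (0.0772), male meth trial 1 replicate 2 (0.155), male PBS trial 1 replicate 1 (0.142), male PBS trial 1 replicate 2 (0.108), female meth replicate 2 (0.0525), female meth replicate 3 (0.0549), female PBS replicate 1 (0.0809), female PBS replicate 2 (0.0908), male meth trial 2 replicate 2 (0.0588), male PBS trial 2 replicate 1 (0.0679) or male PBS trial 2 replicate 2 (0.0664). List medians over both treatments were 0.09 for renin-angiotensin, -0.10 for endothelin, -0.14 for nitric oxide and -0.05 for the feedback and stress genes, beside -0.03 over all probes.

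**Figure D5:**
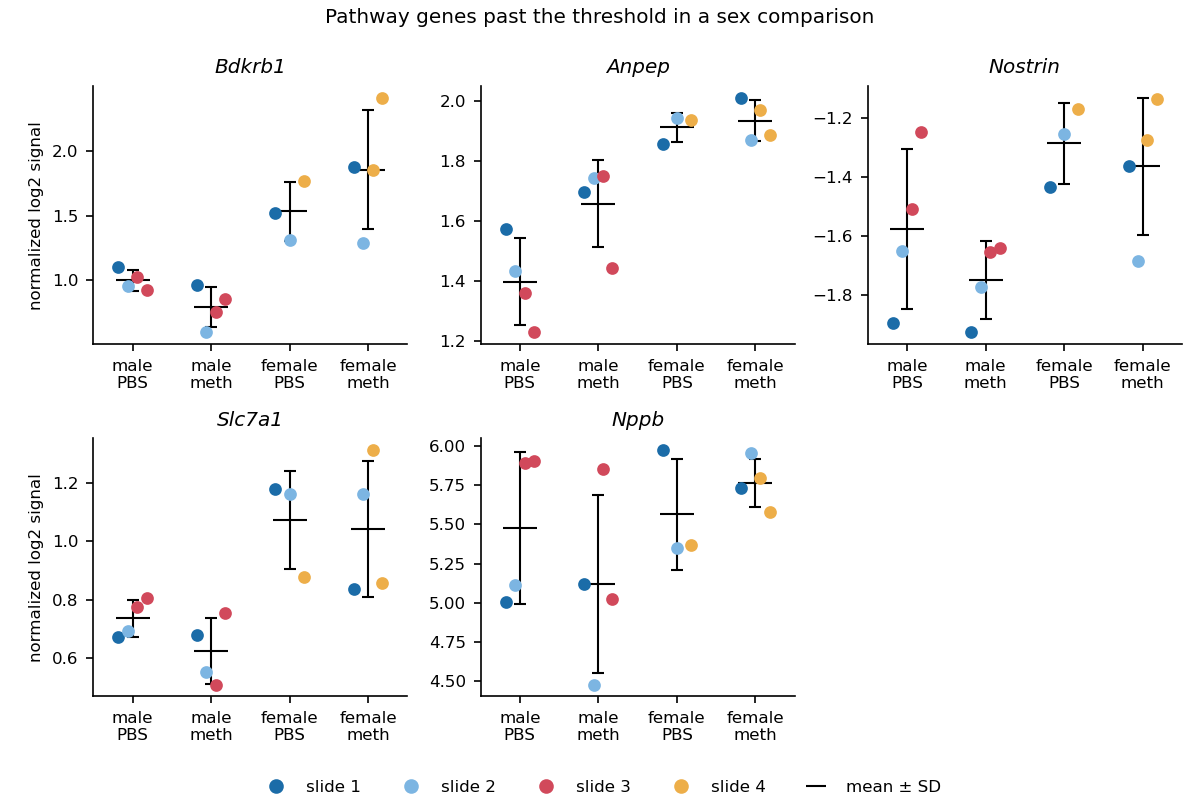
Normalized log2 signal (vertical axis) of 5 list genes on the 15 arrays, by group, with points coloured by slide and bars for the mean ± SD. The male and female arrays of Bdkrb1, Anpep and Slc7a1 do not overlap, as for 1.49% of all probes, while those of Nostrin and Nppb do. The 5 genes were chosen by sex comparisons on these arrays.

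Genes with the most similar pattern over the 15 arrays were found by Pearson's r among 14206 genes, as a description without a test, and the arrays share slides and sexes. For Agt they were Tmem161a (r = 0.96), Kctd1 (0.96) and Acacb (0.95). Ace was close to Apbb3 (0.94) and Ercc3 (0.91). For Agtr1a they were Bcl2l11 (0.97), Rcbtb1 (0.94) and Asxl1 (0.92). Within the 8 males the r with Agt was 0.97 for Tmem161a, 0.76 for Kctd1 and 0.80 for Acacb, and within the 7 females it was 0.94, 0.94 and 0.99. The r of Bcl2l11, Rcbtb1 and Asxl1 with Agtr1a was 0.96, 0.88 and 0.87 in males and 0.94, 0.90 and 0.84 in females.

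For the endothelin genes the values were lower. The genes nearest to Edn1 were Ino80e (0.89), Ltbr (0.88) and Ankra2 (0.87), those nearest to Ednra were Mrtfa (0.89), Dct (0.87) and Adgre5 (0.84), and those nearest to Ednrb were Kank4 (0.88), Fut11 (0.86) and Zfp759 (0.85). Nos3 had Ly6a (0.97), Irf9 (0.96) and Ifitm3 (0.95) as its nearest genes. Within the sexes the r of Ly6a, Irf9 and Ifitm3 with Nos3 was 0.86, 0.72 and 0.71 in males and 0.93, 0.96 and 0.88 in females.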

How the data were processed

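Total RNA of 15 hearts was measured on Agilent mouse 4x44K arrays. The authors extracted the intensities with Agilent Feature Extraction (9.1 per the labels, 10.5.1.1 per the file headers), and the deposited spot signals are background-subtracted intensity values per the file headers. The authors' deposited log2 table is the log2 of those signals plus a constant for each array, to within 5.818e-06, and was used as an alternative. The well above background flag of each spot is a value of another kind (flags), 0 or 1, per the file headers.

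Spots of a probe were averaged on the log2 scale and the 75th percentile of non-control probes was subtracted. Symbols came from the RefSeq table through the probe's accession: 26918 of 41174 probes have one. Probes well above background on fewer than 3 arrays were dropped. limma 3.58.1 in R 4.3.3 fitted group means (4 groups) plus a trial term to all 15 arrays, two-sided, with p-values adjusted by Benjamini-Hochberg over 28358 probes. In the fit, females are trial 1. Single genes were also tested by exact permutation within a sex in Python 3.11.15 with scipy 1.17.1, and plots were drawn with matplotlib 3.10.9. The fits were tested on simulated arrays with independent noise, where 200 of 28320 probes were changed by a log2 step of 2. Of these, limma recovered 93% for male meth, 94% for female meth and 95% for the sexes over both treatments. Of the probes called, 4.62%, 5.05% and 3.55% were false. The simulation held no slide effect and no smaller step, so it does not show how often smaller differences are missed.

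The genes named are the 9 genes, list genes past the threshold in a comparison, the 2 genes of each list and sex with the largest fold change, the brightest marker of each list and markers past the threshold with meth, and the 3 most similar genes of each detected gene. Some genes that these rules name are not reported. The 9 genes and the lists were chosen with earlier results of these data known.

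Equal replicate numbers within a sex and trial were checked as pairs. The arrays with equal numbers shared a slide. After subtraction of group means their correlation over 23808 probes was 0.257 to 0.664 in the 7 pairs, above the limit of 0.1. The counts with the replicate block are therefore given beside those without it. Arrays with unequal numbers on the same slide were not compared, so this check cannot tell pairs from a shared slide. Female meth replicate 4 has no partner and drops out of that fit's female comparison.

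The alternatives tried were a normexp correction of the background (offset 50), quantile and median normalization, the authors' table, no filter or a filter on all 15 arrays, no trial term or the other trial labels, the slide as a fixed or random block (consensus correlation 0.443), the scan session as a block, the replicate block, fits on 1 sex or on trial 1, t-tests with and without pairing, the other probes of a gene, and each array left out. Fits without slide 4 and on slides 1 and 2 alone were chosen after seeing the data.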

Additional observations from a re-analysis of the deposited data

Results flagged for a closer look

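A screen for single arrays that stand apart from their group looked at 48 groups of 4 arrays over 16 genes, using the gap to the nearest array as a share of the range. It found 1 case past the critical value for 4 arrays: Edn1 on male PBS trial 2 replicate 1, with a share of 0.972. The level there was -0.99, against -0.79 to -0.78 on the other male PBS arrays. The critical value is passed by chance in about 1 of 20 groups, so 1 case in 48 groups is fewer than chance gives. The cause of the difference was not tested.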

How the results depend on the processing

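Of 684 values of the 7 genes with meth across all alternatives and left-out arrays, 600 kept their direction and 84 reversed it, none of them called in either fit. The 7 genes stayed at 0 calls in each meth comparison under every alternative run and with each array left out, while the sex differences of Agt, Nos3, Agtr1a, Ednra and Ace crossed the threshold with some. Causes of these changes were not tested, and signal close to background limits the dim genes most. The call of Agt between the sexes was lost with normexp (adjusted p 0.112), no filter (0.0751), the slide (0.108) or scan session (0.0881) as a block, trial 1 alone (0.0821), without slide 4 (0.0749) and on slides 1 and 2 (0.176), in a range of 0.0115 to 0.176. Nos3 passed with the filter on all 15 arrays (0.0479), no trial term (0.0155), the other trial labels (0.00793) and the slide as a random block (0.0369), in a range of 0.00793 to 0.311. Other calls were lost too, with the range of adjusted p over alternatives and left-out arrays in brackets. For the sexes over both treatments these were Nppb under 9 of 14 alternatives (0.0264 to 0.303), Nostrin under 7 (0.00892 to 0.198), Slc7a1 under 7 (0.0167 to 0.155), Anpep under 6 (0.00325 to 0.159) and Bdkrb1 under 4 (0.00325 to 0.120). With meth they were Nppb under 9 (0.0226 to 0.247) and Bdkrb1 under 4 (0.00400 to 0.176). In males Cldn5 was lost under 11 of 18 (0.0113 to 0.540) and Cfd under 12 of 18 (0.0332 to 0.476). Counts and values that changed follow, in the order of the alternatives; the replicate block lost the calls of Cldn5 (adjusted p 0.0683) and Cfd (0.144) in males, and those of clock genes are given with them.

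Normexp background correction called 53 probes for the male meth effect, 27 for the female meth effect and 14 for the sex difference of the meth effect. It also called 111 for the meth effect over both sexes, 21 for the sexes with PBS, 109 for the sexes with meth and 126 for the sexes over both treatments. Further counts were 14 for the trial 1 effect and 27 for the trial 2 effect. Of the 7 genes, the calls were 0 for the sexes over both treatments. Directions changed for Edn1 -0.0020 for the male meth effect; Nos2 0.078 for the female meth effect; Ednra 0.0095 for the sex difference of the meth effect.

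Quantile normalization called 132 probes for the female meth effect. The calls among the 7 genes were 1 for the sexes with meth and 2 for the sexes over both treatments. The fold changes that reversed were Agtr1a 0.014 and Edn1 -0.00091 for the male meth effect; Edn1 0.018 for the female meth effect; Edn1 -0.019, Ednra 0.058 and Nos3 0.014 for the sex difference of the meth effect.

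A median shift called 124 probes for the female meth effect. In this fit the sign was reversed for Edn1 -0.025 and Ednrb -0.023 for the male meth effect; Edn1 0.073 for the female meth effect; Edn1 -0.098 for the sex difference of the meth effect.

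Dropping the filter called 177 probes for the male meth effect, 91 for the female meth effect and 421 for the meth effect over both sexes. It also called 58 for the sexes with PBS, 393 for the sexes with meth, 530 for the sexes over both treatments and 50 for the trial 1 effect. Further counts were 56 for the trial 2 effect. For the 7 genes it gave 0 for the sexes over both treatments.

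A filter on all 15 arrays called 12 probes for the sex difference of the meth effect, 19 for the trial 1 effect and 1 for the difference between trials. Of the 7 genes, the calls were 3 for the sexes over both treatments.

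Leaving out the trial term called 61 probes for the female meth effect, 417 for the meth effect over both sexes and 1522 for the sexes over both treatments. The calls among the 7 genes were 2 for the sexes over both treatments.

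The other trial labels called 236 probes for the sexes with PBS, 1788 for the sexes with meth and 3339 for the sexes over both treatments. Calls of the 7 genes: 1 for the sexes with meth and 3 for the sexes over both treatments. In this fit the sign was reversed for Edn1 0.039 for the female meth effect; Edn1 -0.032 for the sex difference of the meth effect.

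The slide as a fixed block called 525 probes for the male meth effect, 411 for the female meth effect and 1253 for the meth effect over both sexes. For the 7 genes it gave 1 for the sexes with meth. With the opposite sign came Ace -0.024 and Edn1 0.052 for the female meth effect; Edn1 -0.044 for the sex difference of the meth effect.

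The slide as a random block called 692 probes for the male meth effect, 476 for the female meth effect and 82 for the sex difference of the meth effect. It also called 1375 for the meth effect over both sexes and 246 for the sexes with PBS. Of the 7 genes, the calls were 2 for the sexes over both treatments. Directions changed for Edn1 0.035 for the female meth effect; Edn1 -0.028 for the sex difference of the meth effect.

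The scan session as a block called 667 probes for the male meth effect, 508 for the female meth effect and 65 for the sex difference of the meth effect. It also called 1507 for the meth effect over both sexes, 326 for the sexes with PBS and 1156 for the sexes with meth. The calls among the 7 genes were 1 for the sexes with meth and 2 for the sexes over both treatments. The fold changes that reversed were Ace -0.024 and Edn1 0.052 for the female meth effect; Edn1 -0.044 for the sex difference of the meth effect.

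The replicate block, which pairs arrays by number, called 157 probes for the male meth effect, 101 for the female meth effect and 0 for the sex difference of the meth effect. In this fit the sign was reversed for Ace -0.082, Edn1 0.096 and Ednrb -0.016 for the female meth effect; Edn1 -0.089, Ednrb 0.026 and Nos3 0.021 for the sex difference of the meth effect.

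A fit on each sex alone called 167 probes for the male meth effect and 21 for the female meth effect.

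The trial 1 arrays alone called 43 probes for the male meth effect, 69 for the female meth effect and 9 for the sex difference of the meth effect. It also called 115 for the meth effect over both sexes, 61 for the sexes with PBS, 281 for the sexes with meth and 538 for the sexes over both treatments. Of the 7 genes, the calls were 0 for the sexes over both treatments. Directions changed for Agt 0.19 and Agtr1a 0.047 for the male meth effect; Agt 0.11 and Ednra 0.16 for the sex difference of the meth effect.

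A fit without slide 4, chosen after seeing the data, called 49 probes for the female meth effect, 2 for the sex difference of the meth effect and 440 for the meth effect over both sexes. It also called 81 for the sexes with PBS and 321 for the sexes with meth. The calls among the 7 genes were 0 for the sexes over both treatments. The fold changes that reversed were Edn1 0.14 for the female meth effect; Edn1 -0.13 for the sex difference of the meth effect.

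Slides 1 and 2 alone, chosen after seeing the data, called 0 probes for the male meth effect, 0 for the female meth effect and 0 for the sex difference of the meth effect. It also called 0 for the meth effect over both sexes, 12 for the sexes with PBS, 18 for the sexes with meth and 39 for the sexes over both treatments. Calls of the 7 genes: 0 for the sexes over both treatments. In this fit the sign was reversed for Agt 0.19 and Agtr1a 0.047 for the male meth effect; Edn1 0.14 for the female meth effect; Agt 0.0048, Edn1 -0.047, Ednra 0.13 and Ednrb 0.014 for the sex difference of the meth effect.

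A test paired by replicate number called 0 probes for the male meth effect and 0 for the female meth effect. At an unadjusted p under 0.05, the limit the study states, there were 4313 and 2817. Its methods state a paired test but not the pairs, so the study's own test may have given other counts. With the opposite sign came Ace -0.082, Edn1 0.096 and Ednrb -0.016 for the female meth effect.

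The same test without pairing called 18 probes for the male meth effect and 0 for the female meth effect.

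The second Ednra probe reversed these fold changes: Ednra -0.16 for the female meth effect; Ednra 0.20 for the sex difference of the meth effect.

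For the sexes with meth, the probes called ran from 197 to 912 with 1 array left out: 331 without male meth trial 1 replicate 1, 197 without male meth trial 1 replicate 2, 440 without male PBS trial 1 replicate 1, 415 without female meth replicate 3, 409 without female meth replicate 4 and 461 without male PBS trial 2 replicate 1.

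For the sexes over both treatments, the probes called ran from 277 to 1645 with 1 array left out: 604 without male meth trial 1 replicate 1, 299 without male meth trial 1 replicate 2, 277 without male PBS trial 1 replicate 1, 587 without male PBS trial 1 replicate 2, 1645 without female meth replicate 2, 634 without female PBS replicate 2 and 631 without female PBS replicate 3.

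For the sexes over both treatments, the genes of the 7 called ran from 0 to 3 with 1 array left out: 0 without male meth trial 1 replicate 1, 0 without male meth trial 1 replicate 2, 0 without male PBS trial 1 replicate 1, 0 without male PBS trial 1 replicate 2, 0 without female meth replicate 1, 3 without female meth replicate 2, 0 without female PBS replicate 2, 0 without female PBS replicate 3, 0 without male meth trial 2 replicate 2, 0 without male PBS trial 2 replicate 1 and 0 without male PBS trial 2 replicate 2.

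For the trial 1 effect, the probes called ran from 20 to 182 with 1 array left out: 182 without male meth trial 1 replicate 1, 20 without male meth trial 1 replicate 2, 35 without male PBS trial 1 replicate 1, 47 without male PBS trial 2 replicate 1 and 47 without male PBS trial 2 replicate 2.

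For the male meth effect, the probes called ran from 119 to 309 with 1 array left out: 135 without male meth trial 1 replicate 2, 139 without male PBS trial 1 replicate 1, 119 without male PBS trial 1 replicate 2, 178 without male meth trial 2 replicate 1, 185 without male meth trial 2 replicate 2, 133 without male PBS trial 2 replicate 1 and 140 without male PBS trial 2 replicate 2.

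For the meth effect over both sexes, the probes called ran from 402 to 746 with 1 array left out: 483 without male meth trial 1 replicate 2, 472 without male PBS trial 1 replicate 1, 426 without female PBS replicate 1, 410 without female PBS replicate 2, 441 without male PBS trial 2 replicate 1 and 402 without male PBS trial 2 replicate 2.

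For the sexes with PBS, the probes called ran from 42 to 153 with 1 array left out: 42 without male PBS trial 1 replicate 1, 59 without male PBS trial 1 replicate 2, 52 without female PBS replicate 2, 63 without female PBS replicate 3 and 73 without male PBS trial 2 replicate 1.

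For the trial 2 effect, the probes called ran from 28 to 217 with 1 array left out: 60 without male PBS trial 1 replicate 1, 60 without male PBS trial 1 replicate 2, 48 without male meth trial 2 replicate 1, 217 without male meth trial 2 replicate 2, 58 without male PBS trial 2 replicate 1 and 28 without male PBS trial 2 replicate 2.

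For the difference between trials, the probes called ran from 0 to 60 with 1 array left out: 60 without male PBS trial 1 replicate 2, 8 without male meth trial 2 replicate 2 and 3 without male PBS trial 2 replicate 1.

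For the female meth effect, the probes called ran from 38 to 205 with 1 array left out: 131 without female meth replicate 1, 117 without female meth replicate 2, 116 without female meth replicate 3, 90 without female meth replicate 4, 60 without female PBS replicate 1, 38 without female PBS replicate 2, 134 without male PBS trial 2 replicate 1 and 119 without male PBS trial 2 replicate 2.

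Fold changes whose direction changed with 1 array left out ranged as follows. In the male meth effect they were Ednrb -0.048 to 0.061, Edn1 -0.052 to 0.066 and Agtr1a -0.076 to 0.021. In the sex difference of the meth effect they were Edn1 -0.089 to 0.11, Ednrb -0.12 to 0.026, Ednra -0.13 to 0.060 and Nos3 -0.10 to 0.021. In the sexes with PBS they were Ace -0.061 to 0.46. In the female meth effect they were Agt -0.068 to 0.29, Edn1 -0.099 to 0.096, Ace -0.082 to 0.47 and Ednrb -0.016 to 0.13.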

Other observations

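Clock genes differed between meth and PBS hearts. In males 7 of 10 tested clock genes were past the threshold (beside 1.11% of all probes), Arntl falling and Per1, Per2, Per3, Dbp, Tef and Ciart rising, and in females 3 were, Arntl, Per2 and Tef (beside 0.758%). With the replicate block 2 of the male calls, Per1 and Per2, and 0 of the female calls were kept. The alternatives for these genes were chosen after the calls were seen. Of 18 alternatives (17 for Ciart), those that lost a male call numbered from 4 for Per2 to 7 for Per3 and Dbp, and the adjusted p over all of them and the left-out arrays ran from 0.000457 to 0.443. In females 12 lost the call of Arntl, 5 that of Per2 and 7 that of Tef, with adjusted p from 0.00170 to 0.482. Single arrays ended the call of Per3 in males (0.0520 without male meth trial 2 replicate 1, 0.0513 without male meth trial 2 replicate 2, 0.0603 without male PBS trial 2 replicate 1 and 0.0625 without male PBS trial 2 replicate 2) and that of Tef in females (0.0547 without female PBS replicate 2). That of Arntl in females was kept without male meth trial 1 replicate 1 or male PBS trial 1 replicate 1. It was lost without male meth trial 1 replicate 2 (0.0558), male PBS trial 1 replicate 2 (0.0540), male meth trial 2 replicate 1 (0.0509) or 2 (0.0502), male PBS trial 2 replicate 1 (0.0585) or 2 (0.0514), female meth replicate 1 (0.0924), 2 (0.0609), 3 (0.0581) or 4 (0.103), and female PBS replicate 1 (0.131), 2 (0.167) or 3 (0.0961). Whether the hearts were collected at the same time of day was not tested.

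Of 7 liver genes 4 were tested, and 2 of them, Alb and Fgb, were lower in males past the threshold over both treatments; both are named after their values were seen. Alb was well above background on 0 of 8 male and 7 of 7 female arrays, and it was at least 5.62-fold higher in females by the bound set by the lowest detected signals; whether this comes from liver RNA in the samples was not tested.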
